A study of Homo sapiens with 58 samples.

Results

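The regions described here are peaks of HuR binding that the deposited table assigns to non-coding RNA and that lie outside the best-known long non-coding RNAs. HuR, encoded by ELAVL1, is an RNA-binding protein, and a peak is a 20-nt stretch of the genome in which RNA fragments crosslinked to HuR piled up. A peak was a member when its grouped annotation was ncRNA and its gene was not MALAT1, NEAT1, NORAD, OIP5-AS1, LINC00910, GAS5 or ZFAS1 and did not begin with SNHG, SNORD, SNORA or SCARNA. Of 387214 peaks left after repeated lines were dropped, 43401 were ncRNA, 262 of these carried an excluded name, and 43139 remained, which is 11.14% of all peaks. By the finer annotation of the table, 42667 members were in lncRNA, 297 in snRNA, 129 in tRNA, 28 in rRNA, 16 in miRNA and 2 in scaRNA.

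CLIP-seq, in which UV light links a protein to the RNA it touches before immunoprecipitation and sequencing, was run in Huh-7.5 cells, an established human hepatocellular carcinoma line, giving 58 libraries in 16 groups. The 12 fraction libraries, 3 per group, came from wild-type cells in which no APEX reaction was run: Nuc_Fraction and Cyto_Fraction, each either Mock or Arsenite. The other 46 came from 3 engineered lines, APEX-NLS, APEX-NES and APEX-G3BP1, whose ascorbate peroxidase biotinylates proteins in the nucleus, in the cytoplasm or beside the stress-granule protein G3BP1. Input libraries had the HuR immunoprecipitation alone and Enrich libraries also a streptavidin capture. Arsenite means 0.5 mM sodium arsenite for 45 min, which provokes stress granules, and Mock means no arsenite. Every group shared UV doses of 400 and 200 mJ/cm2 and the HuR antibody 3A2, and the APEX lines also received biotin phenol and hydrogen peroxide in both states. The promoters of the APEX genes and whether a line is 1 clone are not given in the sources used here. Nothing says that replicates came from separate cultures, so p-values measure the spread between these libraries, which may be technical.

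HuR carries RNA recognition motifs that favour uridine-rich and AU-rich sequence; it is mostly nuclear at rest, shuttles to the cytoplasm and joins stress granules. Long non-coding RNAs are often unspliced or poorly spliced, and many stay at the chromatin where they are made. Small nuclear RNAs form the spliceosome, Y RNAs bind Ro protein in the cytoplasm, and microRNAs are cut from hairpins in the nucleus by Drosha and in the cytoplasm by Dicer.

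The sequences below are hairpins of the miRNA-class peaks that the results turn on, as RefSeq gives them on GRCh38.p14. Capitals mark the bases that the HuR peak covers when peak starts are counted from 0. The labels do not state that origin, and a start counted from 1 would move each edge by a single base. The first 3 show peaks that reach only into the 5′ end of the hairpin and lie mostly upstream of it. The last shows a peak inside the hairpin.
MIR16-1: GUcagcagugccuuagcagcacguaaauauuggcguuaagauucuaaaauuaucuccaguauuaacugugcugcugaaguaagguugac
MIR16-2: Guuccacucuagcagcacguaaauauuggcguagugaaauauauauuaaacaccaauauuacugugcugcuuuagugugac
MIR301A: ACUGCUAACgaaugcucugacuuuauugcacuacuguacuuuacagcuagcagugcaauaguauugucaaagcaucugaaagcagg
MIR1244-2: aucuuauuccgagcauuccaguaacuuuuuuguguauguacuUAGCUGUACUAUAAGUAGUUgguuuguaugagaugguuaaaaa
The peak at MIR16-1, at chr13:50049059-50049079 on the minus strand, began 18 nt upstream of the hairpin and covered 2 nt of it. The peak at MIR16-2, at chr3:160404725-160404745 on the plus strand inside SMC4, began 19 nt upstream and covered 1 nt. The peak at MIR301A, at chr17:59151212-59151232 on the minus strand inside SKA2, began 11 nt upstream and covered 9 nt. The peak at MIR1244-2, at chr5:118974627-118974647 on the plus strand, lay wholly within the hairpin. The mature products follow with the seed, bases 2 to 8, in capitals. Both MIR16 hairpins give the same 5p product and so share its seed.
hsa-miR-16-5p: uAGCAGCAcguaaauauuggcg
hsa-miR-301a-3p: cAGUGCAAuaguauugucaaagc
hsa-miR-1244: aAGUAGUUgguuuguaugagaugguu

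Sequence was also at hand for the few members that lie near a gene start. Of 22 such member peaks, 5 (22.7%) held TTTTT or ATTTA on the peak's strand, against 65 of 344 other peaks near gene starts (18.9%) and 3.5% of all stretches of that length in the RefSeq promoter table. The matches may overlap each other and are a description, not binding sites. Examples, with the matched letters in capitals, are the peak in LINC02484 at chr4:34269880-34269900 and the peak in GUSBP3 at chr5:69656183-69656203, both on the minus strand. Each printed stretch runs from the first to the last of these coordinates and so holds 1 base more than the 20-nt peak, whichever origin its start has.
LINC02484: taTTTTTTTTccaaccgactc
GUSBP3: tataATTTAtaatttgcagac

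Depth, as tags that fell in any peak, was 235471 to 673322 per fraction library, 1353 to 484305 per Input library and 519 to 86419 per Enrich library. Of 10 hepatocyte and hepatoma marker genes, 8 had peaks, and their summed level was 656 to 2523 CPM (tags per 1000000 of the deposited library total) in the fraction libraries, while 8 markers of other cells summed to 1.02 to 9.09 CPM, 4 of them with peaks. MALAT1 and NEAT1, which are nuclear lncRNAs, summed to 2788 to 3124 CPM in the nuclear mock libraries and 2265 to 2829 CPM in the cytoplasmic mock libraries. After arsenite the sums were 3028 to 3879 CPM in nuclear and 2603 to 3584 CPM in cytoplasmic libraries. The ranges overlapped in both states, so these genes did not separate the fractions library by library. In bulk libraries a lower count from fewer cells of a kind and from less RNA per cell cannot be told apart. All fraction libraries belong to library set JL0380, and the APEX libraries to JL0361, JL0388 and JL1024.

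The members spread over 4341 genes and were mostly shallow. The median member had 11 tags over all 58 libraries, 18976 members had under 10, and 912 had none in any fraction library. Of the genes, 2258 held 1 member peak, 628 held 10 or more and 84 held 100 or more, and these 84 took 19256 peaks, or 44.6% of the members. The densest was ENSG00000251574 on chromosome 5 with 820 peaks. Of the lncRNA peaks, 97.42% were also listed as intron, and no gene name was given for 16064 members. RefSeq lncRNA genes spanned 54.1% of the members, protein-coding genes 16.38%, and 34.39% lay in neither. The classes drew unequal shares of the 946504 member tags: lncRNA 91.99%, rRNA 3.94% and snRNA 3.357%. Of the members, 138 lay in ribosomal RNA genes, 110 of them under the class lncRNA.

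In the fractions, HuR tags in these non-coding peaks made up a larger share in the nucleus than in the cytoplasm, and the gap was smaller after arsenite when all tags in peaks were the total, but not with a narrower total. The share of all tags in peaks was 12.74% ± 0.07 (SD, n = 3) in the nuclear mock libraries, with a range of 12.67% to 12.81%, and 8.32% ± 0.67 (n = 3) in the cytoplasmic mock libraries, with a range of 7.90% to 9.09%. After arsenite it was 12% ± 0.07 in the nucleus and 10.87% ± 0.18 in the cytoplasm (n = 3 each). Neither pair of groups overlapped, and neither did mock and arsenite within a fraction. With 3 libraries against 3, the exact permutation test (two-sided) cannot go below 0.1, which all 4 comparisons reached, and the adjusted p over 11 comparisons was 0.22. When the total was restricted to tags outside 3′UTR, snoRNA and excluded named lncRNA peaks, the cytoplasmic difference between arsenite and mock turned from 2.55 to −0.07 percentage points and the nuclear one from −0.74 to 0.38. With that total the nuclear share exceeded the cytoplasmic one by 0.10 points in mock (exact permutation p = 0.3) and by 0.55 points after arsenite (exact permutation p = 0.1), so the gap was then larger after arsenite.

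**Figure D1:**
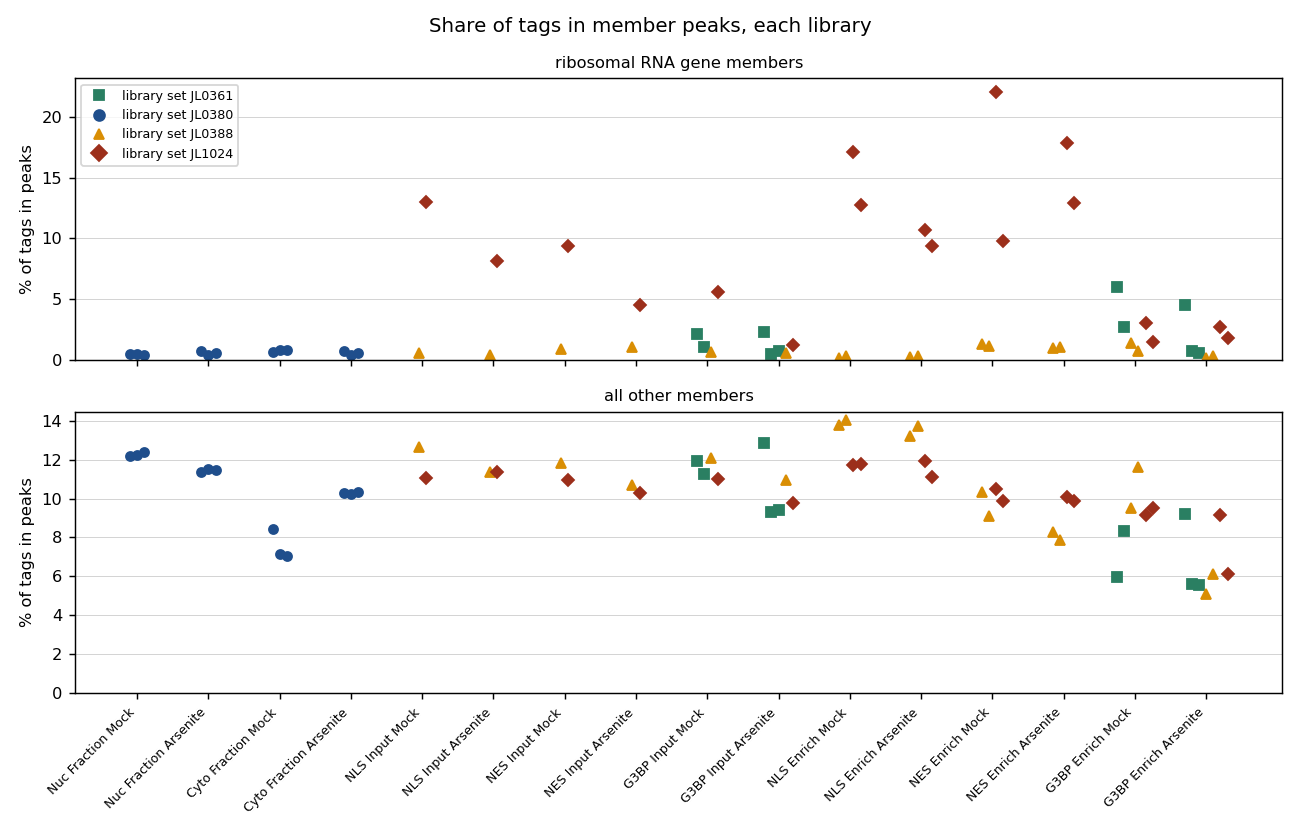
Share of a library's tags in peaks (percent, y axis) that fell in member peaks of ribosomal RNA genes and in the other member peaks, for each library by group and library set. Members outside ribosomal genes took 12.26% of tags in nuclear mock and 7.56% in cytoplasmic mock libraries, and ribosomal members reached 22.1% in an enriched NES library of set JL1024.

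The classes did not move as a block. Intron-listed lncRNA peaks carried the larger part of the difference: 11.63% ± 0.16 of tags in nuclear mock against 6.99% ± 0.85 in cytoplasmic mock libraries, and 10.71% ± 0.17 against 9.86% ± 0.04 after arsenite (n = 3 each). The lncRNA peaks without an intron listing ran the other way in mock, at 0.261% ± 0.018 in the nucleus and 0.386% ± 0.033 in the cytoplasm, and were at 0.336% ± 0.019 and 0.306% ± 0.012 after arsenite. Peaks in snRNA took 0.325% ± 0.056 of nuclear and 0.119% ± 0.021 of cytoplasmic tags in mock, and 0.364% ± 0.066 and 0.109% ± 0.027 after arsenite. Peaks in tRNA also had a lower share in the nucleus than in the cytoplasm in mock, at 0.0277% ± 0.0052 and 0.0539% ± 0.0134, and their cytoplasmic share was 0.0186% ± 0.0041 after arsenite. Peaks in miRNA went from 0.0166% ± 0.0015 to 0.00527% ± 0.00124 in the nucleus and from 0.0062% ± 0.0006 to 0.00225% ± 0.00057 in the cytoplasm with arsenite. For snRNA, mock and arsenite overlapped within each fraction, and for tRNA the fractions overlapped after arsenite, with a nuclear share of 0.0166% ± 0.0060. The nuclear tRNA shares in mock and after arsenite overlapped too (exact permutation p = 0.2, adjusted p = 0.256). The other pairs named here did not overlap. Each non-overlapping comparison had an exact permutation p of 0.1, the smallest possible, and an adjusted p of 0.139 over 32 comparisons.

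For tests per gene, the values of a gene's member peaks were summed, because peaks of 1 transcript share their source. A gene was called when its adjusted p in limma, over all features of the table, was under 0.05, and differences are on the scale log2(CPM + 2.28). In mock cells, 2288 of the 4341 member genes had enough non-zero libraries to be tested. Of these, 282 were called higher in the nuclear fraction and 176 higher in the cytoplasmic fraction, together 458, where 19.7% of all 42706 tested features of the table were called (8.49% higher and 11.2% lower in the nucleus). The median difference of the tested members was 0.19, against 0.14 over all features. No called gene had overlapping groups, and the tested genes do not stand for all members, since a gene seen in 1 fraction only could pass the filter. The values of genes at or near 0 in 1 of the groups compared are therefore descriptions. The balance of directions differed in other settings: 332 higher and 124 lower after scaling to tags in peaks, and 94 higher and 111 lower in edgeR, which changes the test and the scaling together. Leaving out single libraries gave 116 calls (without the third cytoplasmic mock library) to 235. At single peaks 132 were called higher and 95 lower of 17669 tested members, where 2.82% of all tested peaks were called (0.53% higher and 2.29% lower).

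Several small nuclear RNAs were higher in the nuclear fraction. RNU5B-1, a gene of the U5 RNA that holds exon ends together in the spliceosome, had a single peak at chr15:65304758-65304778 (plus strand, exonic). Its levels were 117, 196 and 130 CPM in the nuclear mock libraries and 4.25, 4.07 and 3.16 CPM in the cytoplasmic mock libraries. After arsenite they were 39.2, 19.2 and 31.2 CPM in the nucleus and 4.33, 1.14 and 1.39 CPM in the cytoplasm. Every nuclear library was above every cytoplasmic one in both states, and the nuclear libraries were lower after arsenite without overlap. The nuclear excess was 4.58 ± 0.24 (log2, SE, adjusted p = 6.6e-06) in mock and 2.83 ± 0.31 (adjusted p = 4.8e-05) after arsenite, and the nuclear level fell by 2.24 ± 0.25 (adjusted p = 0.00094). The mock call remained in 6 of 6 fits without 1 library, the nuclear arsenite call in 2 of 6, and the difference of the differences, −1.76 ± 0.42 (adjusted p = 0.009), was not called by edgeR (adjusted p = 0.43).

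RNU4-2, a U4 RNA gene on chromosome 12, behaved likewise in the nucleus. It had 40.8, 30.9 and 24.1 CPM in nuclear mock, 2.13, 7.13 and 4.22 in cytoplasmic mock, 5.61, 6.4 and 12.1 in nuclear arsenite and 3.61, 1.14 and 2.09 in cytoplasmic arsenite libraries. The nuclear mock libraries stood above all the others. The nuclear excess in mock was 2.38 ± 0.33 (adjusted p = 0.001), the nuclear level fell by 1.75 ± 0.28 with arsenite (adjusted p = 0.0096), and the excess after arsenite, 1.16 ± 0.31, was not called (adjusted p = 0.086). U2 genes did not share that drop. The 14 snRNA-class peaks that the table assigns to CCDC200 (chr17:43233799-43300132, minus strand) all lay inside RefSeq snRNA genes of the U2 repeat array. They summed to 514, 498 and 349 CPM in nuclear mock, 160, 201 and 220 in cytoplasmic mock, 765, 646 and 593 in nuclear arsenite and 257, 171 and 202 in cytoplasmic arsenite libraries. Nuclear libraries were higher than cytoplasmic ones in both states, by 1.21 ± 0.17 in mock (adjusted p = 0.0012) and by 1.67 ± 0.11 after arsenite (adjusted p = 3.9e-07), and the nuclear difference between arsenite and mock was 0.57 ± 0.13 (adjusted p = 0.069). RNU2-36P, a U2 pseudogene, had 33.5, 27.3 and 21.2 CPM in nuclear mock and 59.2, 43.2 and 61.5 CPM in nuclear arsenite libraries, a called rise of 0.95 ± 0.20 (adjusted p = 0.044) that was lost in each of the 6 fits without 1 library. Copies of an snRNA are nearly identical, so how reads were shared among U2 genes and pseudogenes is uncertain.

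**Figure D2:**
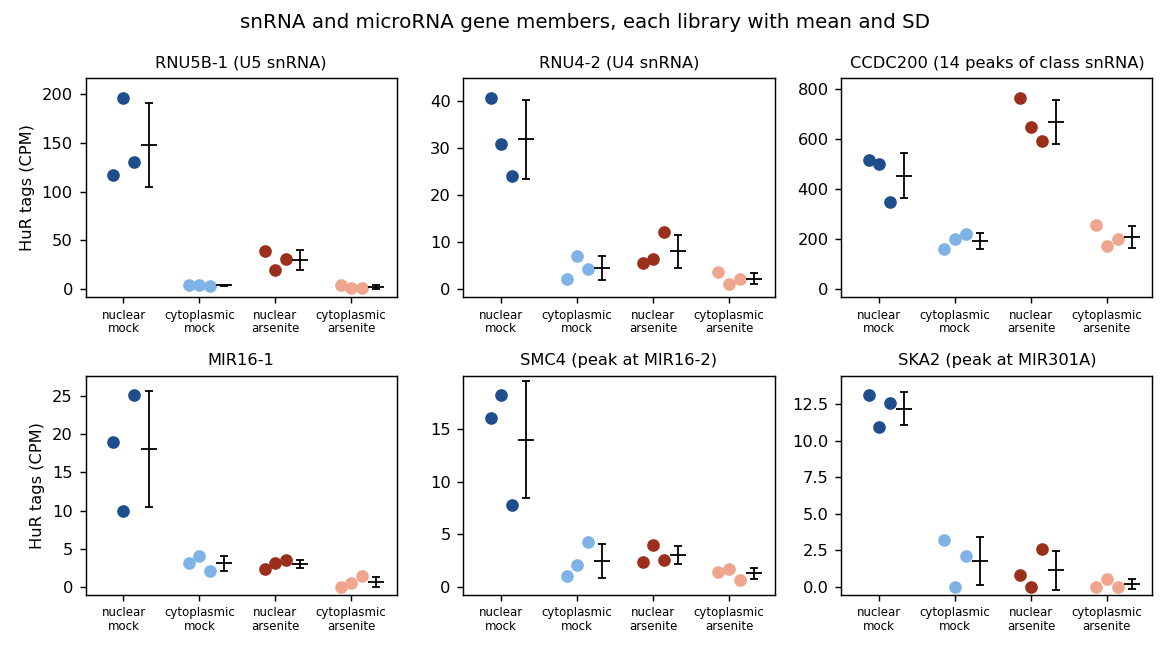
CPM per library (y axis) of the member peaks of RNU5B-1, RNU4-2, CCDC200, MIR16-1, SMC4 and SKA2 in the 4 fraction groups, 3 libraries each, with mean and SD. In mock every nuclear library lies above every cytoplasmic one in each panel, and with arsenite RNU5B-1, RNU4-2 and the 3 miRNA-class genes are lower in the nucleus while CCDC200 is not.

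As a class, 98 snRNA genes were tested in mock, 18 were called higher in the nucleus and 2 lower, beside 8.49% of all features called higher and 11.2% lower, with a median of 0.21 against 0.14 over all features. After arsenite, 17 of 97 were called, each higher in the nucleus, with a median of 0.47 against −0.02. Beside this, 1.65% of all tested features were called after arsenite. Of the genes named as spliceosomal RNAs or their copies, 15 were called higher and 1 lower of 81 tested in mock, and 12 higher of 83 tested after arsenite. In edgeR the mock counts were 9 higher and 0 lower for the class and 7 higher and 0 lower for the spliceosomal names, and after scaling to tags in peaks 20 and 16 higher and 0 lower in each. RNU1-1, a U1 gene, had 11.7, 8.18 and 10.6 CPM in nuclear mock against 0, 4.07 and 1.05 CPM in cytoplasmic mock libraries, a difference of 1.76 ± 0.39 (adjusted p = 0.015). RNU5E-4P, a U5 pseudogene, had 8.74, 5.46 and 5.79 CPM in nuclear mock and was at 0 in all cytoplasmic libraries, at least 6.38-fold higher against 3 tags over the group. RNU5A-1, another U5 gene, was not called in either state, with 7.29, 11.8 and 7.73 CPM in nuclear mock and 5.32, 7.13 and 7.38 CPM in cytoplasmic mock libraries (0.32 ± 0.28, adjusted p = 0.50). RUVBL1 was called through 2 snRNA-class peaks (mock 1.25 ± 0.27, adjusted p = 0.014), so its name is that of the host gene on the table's annotation.

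Further small RNAs appeared under uninformative names. ENSG00000262202, listed as lncRNA, had 1 peak at chr17:19112436-19112456 (minus strand), which lies inside SNORD3D, a gene of U3, the snoRNA that guides cleavage of the ribosomal precursor in the nucleolus. Its levels were 37.9, 37.3 and 37.7 CPM in nuclear mock, 3.19, 3.06 and 6.33 in cytoplasmic mock, 44.0, 34.4 and 41.6 in nuclear arsenite and 1.44, 0 and 2.09 in cytoplasmic arsenite libraries. The nuclear libraries were tightly grouped and far above the cytoplasmic ones in both states. The differences were 2.66 ± 0.26 (adjusted p = 0.00014) in mock and 3.66 ± 0.27 (adjusted p = 8.5e-07) after arsenite. A peak assigned to RCC1, at chr1:28508735-28508755 on the plus strand inside the snoRNA gene SNORA73B, had 12.01, 8.80 and 10.4 CPM in nuclear and 0.722, 0 and 0 CPM in cytoplasmic arsenite libraries. It could enter the test through the nuclear libraries alone, so these values are a description.

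A Y RNA was higher in the cytoplasm. ENSG00000286171, listed as lncRNA, had 1 peak at chr7:148941523-148941543 (plus strand), inside RefSeq's RNY5. Its levels were 11.7, 12.7 and 8.69 CPM in nuclear mock and 69.1, 118 and 173 CPM in cytoplasmic mock libraries. After arsenite they were 3.20, 5.6 and 1.73 CPM in the nucleus and 26.0, 14.8 and 27.1 CPM in the cytoplasm. Cytoplasmic libraries were higher in both states without overlap, and the cytoplasmic arsenite libraries were below every cytoplasmic mock library. The nuclear-minus-cytoplasmic difference was −3.12 ± 0.31 in mock (adjusted p = 0.00014) and −2.12 ± 0.30 after arsenite (adjusted p = 0.00069), and the cytoplasmic level fell by 2.24 ± 0.32 with arsenite (adjusted p = 0.0036). The mock call remained in 6 of 6 fits without 1 library and each of the other two in 2 of 6. A peak named Y_RNA on chromosome 4 was at 0 in all nuclear libraries, at 3.19, 6.11 and 9.49 CPM in cytoplasmic mock and at most 0.72 CPM in cytoplasmic arsenite libraries. It entered the test through the cytoplasmic mock libraries, so these values are a description. Of 50 tRNA genes tested in mock, 6 were called, each higher in the cytoplasm (12%, median −0.33), beside 11.2% of all features called in that direction. After scaling to tags in peaks 2 were called, and in edgeR 5. Of 46 tested in the cytoplasm between arsenite and mock, 5 were called, each lower after arsenite (median −0.34). In that comparison 4.52% of all tested features were called. The tRNA-class peak of the highest mean level, chr17-124, lay in MTRNR2L1, a nuclear copy of mitochondrial ribosomal RNA, and the next lay in the glutamine tRNA TRQ-TTG1-1.

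At 3 microRNA hairpins, MIR16-1, MIR16-2 and MIR301A, tags were higher in the nucleus in mock and fell there with arsenite. The MIR16-1 peak had 18.9, 10.0 and 25.1 CPM in nuclear mock, 3.19, 4.07 and 2.11 in cytoplasmic mock, 2.40, 3.20 and 3.46 in nuclear arsenite and 0, 0.569 and 1.39 in cytoplasmic arsenite libraries. The nuclear mock libraries were above all others. The mock difference was 1.85 ± 0.34 (adjusted p = 0.0057) and the nuclear level fell by 1.86 ± 0.32 with arsenite (adjusted p = 0.013). The MIR16-2 peak, which the table assigns to the host gene SMC4, had 16.03, 18.2 and 7.73 CPM in nuclear mock, 1.06, 2.04 and 4.22 in cytoplasmic mock, 2.40, 4.0 and 2.60 in nuclear arsenite and 1.44, 1.71 and 0.696 in cytoplasmic arsenite libraries. Its nuclear mock libraries were again above all others, with a mock difference of 1.77 ± 0.37 (adjusted p = 0.011) and a nuclear fall of 1.57 ± 0.32 (adjusted p = 0.035). The 2 miRNA-class peaks of SKA2, of which the MIR301A peak held 94.7% of the level, had 13.1, 10.9 and 12.6 CPM in nuclear mock, 3.19, 0 and 2.11 in cytoplasmic mock, 0.801, 0 and 2.60 in nuclear arsenite and 0, 0.569 and 0 in cytoplasmic arsenite libraries. Here too the nuclear mock libraries stood alone, with a mock difference of 1.93 ± 0.36 (adjusted p = 0.0061) and a nuclear fall of 2.15 ± 0.33 (adjusted p = 0.0072).

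These calls rest on few tags, and dropping 1 library ended most of them. In the fits without 1 library the nuclear arsenite call remained in 1 of 6 for MIR16-1, 1 of 6 for SMC4 and 3 of 6 for SKA2, and the mock call in 2, 2 and 4 of 6. DLEU2, the lncRNA whose intron holds MIR16-1, did not share the fall: its 192 peaks had 308, 321 and 336 CPM in nuclear mock and 340, 340 and 317 CPM in nuclear arsenite libraries (0.05 ± 0.07, adjusted p = 0.80). MIR1244-2 ran opposite, at 0 in the nuclear mock and the cytoplasmic arsenite libraries and at 3.19, 7.13 and 5.27 CPM in the cytoplasmic mock libraries, at least 4.89-fold and 7.94-fold higher than those groups at 3 tags each. Its hairpin is identical to those of MIR1244-3 and MIR1244-4, so its reads cannot be assigned to 1 copy. Of all miRNA-class genes, 9 were tested in mock, 4 higher and 1 lower in the nucleus, beside 8.49% of all features higher and 11.2% lower, and 7 in the nuclear arsenite comparison, 3 of them lower, where 1.65% of all tested features were called.

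Long lncRNAs with many peaks were mostly called higher in the nuclear fraction. Of 84 genes with 100 or more member peaks, 76 were called higher in the nuclear mock libraries, out of the 282 members called in that direction, and all 84 had a difference above 0, from 0.43 to 1.31 with a median of 0.80. The median was smaller for genes with fewer peaks: 0.56 over 544 genes with 10 to 99 peaks (132 higher, 18 lower), 0.09 over 1104 tested genes with 2 to 9 (45 higher, 89 lower) and −0.12 over 556 tested genes with 1 (29 higher, 69 lower). Of all features 8.49% were called higher and 11.2% lower, and the genes with 1 peak, at 5.22% and 12.4%, were near these shares, with 27 higher and 41 lower after scaling to tags in peaks. Long introns of other genes did the same, since of 442 intron features with 100 or more peaks 369 were called higher, with a median of 0.77, so the pattern was not particular to the non-coding class. In edgeR, where the median of all features was 0.06 in place of 0.14, 33 of the 84 were called, and after scaling to tags in peaks, with a median of 0.17, 81 were. All 84 were above 0 in both. Without single libraries 31 to 68 were called, with 68 without the first cytoplasmic mock library, and 44 or fewer without any other of the mock libraries, and all 84 stayed above 0 each time.

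**Figure D3:**
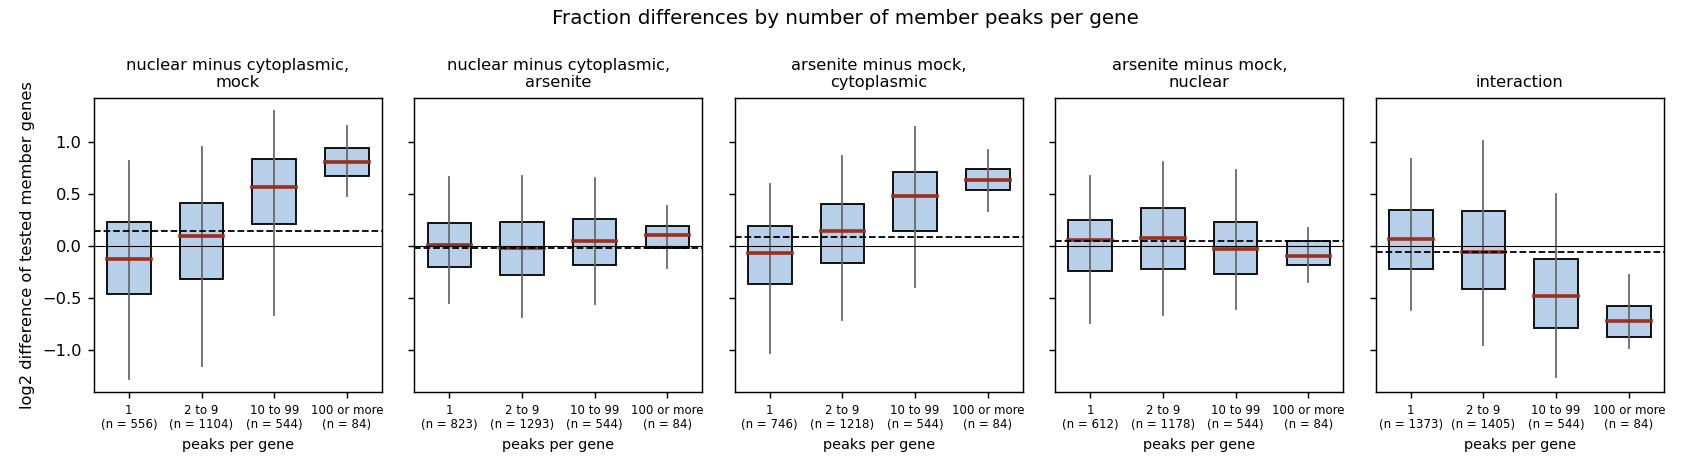
Log2 differences (y axis) of tested member genes grouped by their number of member peaks (x axis) in the 5 comparisons; boxes span the 25th to 75th percentile, whiskers the 5th to 95th, the red line is the median and the dashed line the median of all features. Genes with 100 or more peaks have medians of 0.80 between fractions in mock, 0.11 between fractions after arsenite and 0.64 between arsenite and mock in the cytoplasm.

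LINC02476, an intergenic lncRNA on chromosome 7 with 812 peaks, had the highest level of the class outside ribosomal genes. It had 2372, 2387 and 2411 CPM in nuclear mock, 1591, 1217 and 1186 in cytoplasmic mock, 2242, 2465 and 2352 in nuclear arsenite and 1894, 2050 and 1896 in cytoplasmic arsenite libraries. The nuclear libraries were level across states, and the cytoplasmic arsenite libraries lay between the cytoplasmic mock and the nuclear ones. The nuclear excess was 0.86 ± 0.10 (adjusted p = 0.00043) in mock and 0.27 ± 0.04 (adjusted p = 0.00034) after arsenite, and the cytoplasmic level rose by 0.56 ± 0.11 (adjusted p = 0.018). FTX, a lncRNA of the X-inactivation centre with 194 peaks, had 372, 320 and 333 CPM in nuclear mock, 183, 164 and 149 in cytoplasmic mock, 338, 349 and 325 in nuclear arsenite and 236, 244 and 247 in cytoplasmic arsenite libraries. It kept a gap without overlap in both states, with a nuclear excess of 1.04 ± 0.12 (adjusted p = 0.00038) and 0.47 ± 0.07 (adjusted p = 0.001). CYTOR, a lncRNA described as mostly cytoplasmic, had 118, 93.7 and 110 CPM in nuclear mock against 49.99, 41.8 and 47.5 CPM in cytoplasmic mock libraries, a nuclear excess of 1.17 ± 0.16 (adjusted p = 0.0011). That sum covers 83 peaks, and 97.42% of all lncRNA peaks were also listed as intron. Spliced and unspliced CYTOR RNA were therefore not told apart.

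Other long members were also higher in the nucleus in mock. LINC01876, with 400 peaks, had 742, 737 and 735 CPM in nuclear mock, 426, 345 and 373 in cytoplasmic mock, 648, 687 and 661 in nuclear arsenite and 590, 649 and 655 in cytoplasmic arsenite libraries. The fractions were apart in mock (0.95 ± 0.10, adjusted p = 0.00016) and not after arsenite (0.08 ± 0.05, adjusted p = 0.60). KCNQ1OT1, the antisense RNA of the KCNQ1 imprinted domain, had 111, 99.1 and 92.7 CPM in nuclear mock and 63.8, 63.1 and 53.8 CPM in cytoplasmic mock libraries, an excess of 0.72 ± 0.15 (adjusted p = 0.012). Of the list of lncRNAs described as mostly nuclear, 7 of 9 were tested in mock and 4 were called, each higher in the nucleus, with a median of 0.72. Of the genes named LINC, 274 were tested, 52 higher and 23 lower (median 0.19). Antisense lncRNAs numbered 252, with 22 higher and 25 lower (median 0.12), and divergent lncRNAs 115, with 9 higher and 7 lower (median 0.19). As called higher these were 18.98% of the LINC genes, 8.73% of the antisense and 7.83% of the divergent lncRNAs, beside 8.49% of all features. As called lower the share of all features was 11.2%. Of the list of lncRNAs described as mostly cytoplasmic, 4 of 5 were tested and 2 were called, both higher in the nucleus. Spliced and unspliced RNA of these genes were not told apart. Of 29 tested microRNA host genes 4 were higher and 1 lower. The liver list had 2 tested members, of which HULC, a lncRNA raised in hepatoma, was at 0 in nuclear mock and had 4 tags in cytoplasmic mock libraries, through which alone it entered the test. Of the stress-linked list, LINC-PINT was the 1 of 2 tested that was called, higher in the nucleus.

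**Figure D4:**
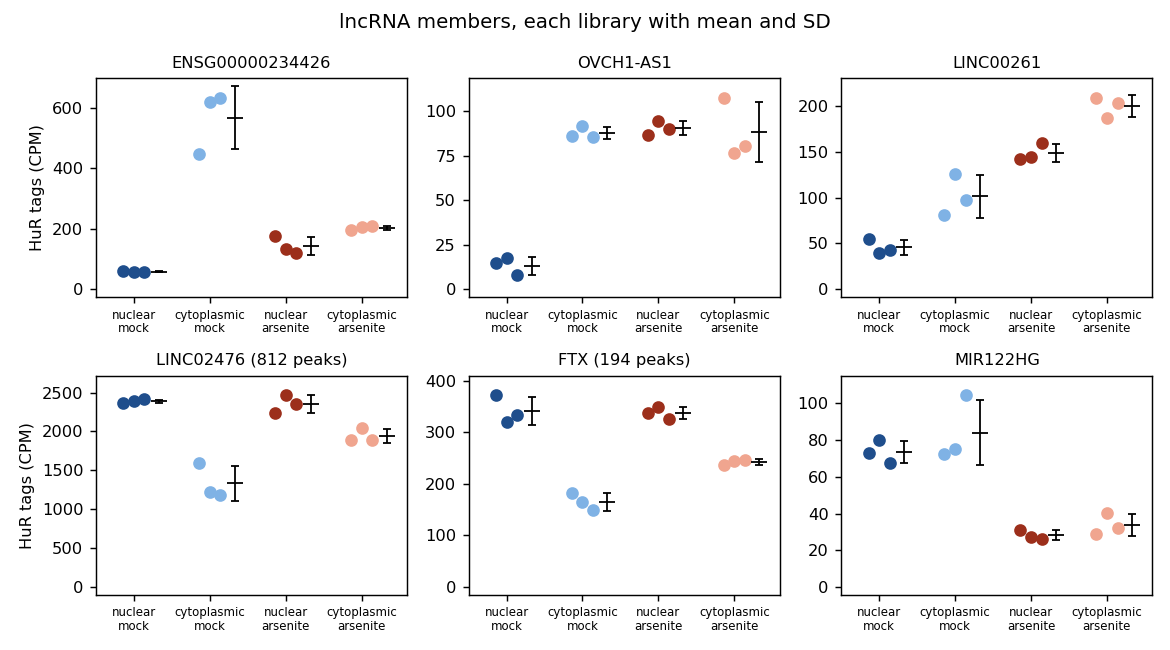
CPM per library (y axis) of the member peaks of ENSG00000234426, OVCH1-AS1, LINC00261, LINC02476, FTX and MIR122HG in the 4 fraction groups, 3 libraries each, with mean and SD. In mock ENSG00000234426 and OVCH1-AS1 are higher in the cytoplasm and LINC02476 and FTX in the nucleus, and MIR122HG is lower after arsenite in both fractions.

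Some lncRNA members were higher in the cytoplasm in mock, and several of these hold peaks inside pseudogenes. The lncRNA members inside RefSeq pseudogenes numbered 272, and 108 were tested in mock. Of these, 14 were called, each higher in the cytoplasm, with a median of −0.40, and they made up 14 of the 95 member peaks called in that direction. These are 12.96% of those tested, beside 2.29% of all tested peaks and 13.05% of tested 3′UTR peaks. This set was chosen after its values were seen, and reads of a pseudogene can come from its near-identical parent, so which locus was bound is uncertain. ENSG00000234426, on chromosome 6 (chr6:88232261-88379028, minus strand), had 11 peaks, and 96.6% of its level came from 1 peak at chr6:88275735-88275755 inside ACTBP8, an actin pseudogene. It had 61.2, 56.4 and 57.9 CPM in nuclear mock, 448, 619 and 633 in cytoplasmic mock, 175, 134 and 120 in nuclear arsenite and 196, 204 and 209 in cytoplasmic arsenite libraries. With arsenite the nuclear libraries were higher and the cytoplasmic ones lower, without overlap in either. The nuclear-minus-cytoplasmic difference was −3.21 ± 0.15 in mock (adjusted p = 6e-06) and −0.52 ± 0.12 after arsenite (adjusted p = 0.03), the nuclear level rose by 1.24 ± 0.14 (adjusted p = 0.0012), and the cytoplasmic level fell by 1.45 ± 0.14 (adjusted p = 0.00047). The difference of the differences, 2.69 ± 0.17 (adjusted p = 1.8e-15), was called in 12 of 12 fits without 1 library.

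More genes of this kind had the same order in mock. ENSG00000289899 on chromosome 21, whose leading peak lies in MARCKSP1, had 20.4, 16.4 and 19.3 CPM in nuclear mock, 134, 199 and 197 in cytoplasmic mock, 64.1, 45.6 and 33.8 in nuclear arsenite and 57.0, 72.2 and 65.4 in cytoplasmic arsenite libraries. The fractions were apart in mock (−3.08 ± 0.20, adjusted p = 1.7e-05) and overlapped after arsenite. GMDS-DT, a divergent lncRNA with 86.7% of its level at HMGN2P28, had 17.5, 23.6 and 27.0 CPM in nuclear mock and 84.0, 130 and 123 CPM in cytoplasmic mock libraries (−2.19 ± 0.23, adjusted p = 0.00019). Its cytoplasmic level fell to 33.9, 57.4 and 40.3 CPM with arsenite (by 1.32 ± 0.23, adjusted p = 0.0098). TACR3-AS1, which holds DDX3P3, a copy of a DEAD-box helicase, had 7.29, 9.09 and 6.76 CPM in nuclear mock, 32.97, 28.5 and 32.7 in cytoplasmic mock, 32.0, 37.6 and 26.9 in nuclear arsenite and 34.6, 31.3 and 30.6 in cytoplasmic arsenite libraries. Only its nuclear mock libraries were low among the 4 groups, and the nuclear level rose by 1.78 ± 0.22 with arsenite (adjusted p = 0.0019). RPL23P4, a ribosomal protein pseudogene, was at 0 in the nuclear mock libraries and at 7.45, 11.2 and 10.5 CPM in the cytoplasmic mock libraries, at least 9.15-fold higher.

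OVCH1-AS1, an antisense lncRNA on chromosome 12 (chr12:29390457-29394387, plus strand), was also higher in the cytoplasm in mock, at a peak outside any RefSeq pseudogene. It had 14.6, 17.3 and 7.73 CPM in nuclear mock, 86.2, 91.7 and 85.4 in cytoplasmic mock, 86.5, 94.4 and 90.1 in nuclear arsenite and 108, 76.7 and 80.7 in cytoplasmic arsenite libraries. The nuclear mock libraries alone were low. The mock difference was −2.60 ± 0.26 (adjusted p = 0.00014), the nuclear rise 2.64 ± 0.23 (adjusted p = 0.00023) and the cytoplasmic difference −0.01 ± 0.17 (adjusted p = 0.99). HELLS, whose 46 peaks here are lncRNA peaks within the locus of a chromatin helicase, had 91.8, 97.3 and 72.4 CPM in nuclear mock, 250.0, 297 and 266 in cytoplasmic mock, 187, 162 and 152 in nuclear arsenite and 212, 189 and 168 in cytoplasmic arsenite libraries. It was higher in the cytoplasm in mock (−1.62 ± 0.15, adjusted p = 9.3e-05) and its nuclear level rose by 0.92 ± 0.13 (adjusted p = 0.0047). THSD4-AS1 had 0, 0 and 1.93 CPM in nuclear mock and 12.8, 22.4 and 28.5 CPM in cytoplasmic mock libraries. LINC01509 had 0, 5.46 and 3.86 CPM in nuclear mock and 27.7, 26.5 and 60.1 CPM in cytoplasmic mock libraries (−2.98 ± 0.47, adjusted p = 0.0025), and it remained higher in the cytoplasm after arsenite (−1.94 ± 0.22, adjusted p = 6.3e-05).

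After arsenite few members differed between the fractions. Of 2744 tested genes, 34 were called higher in the nucleus and 17 higher in the cytoplasm, together 51, beside 1.65% of all features (0.485% higher and 1.16% lower). The median was 0.01 over the members and −0.02 over all features. Of the 34, 17 were lncRNA genes and the other 17 the snRNA genes above. Of the genes with 100 or more peaks 4 were called, each higher in the nucleus, with a median of 0.11. ENSG00000267364 on chromosome 17, with 1 peak at chr17:35318807-35318827 on the plus strand, was the member most raised in the cytoplasm, with 4.004, 2.40 and 2.60 CPM in nuclear and 25.3, 28.4 and 24.3 CPM in cytoplasmic arsenite libraries (−2.43 ± 0.24, adjusted p = 1.9e-05). SEC31A, whose 5 lncRNA peaks lie at the locus of a COPII coat protein, had 12.01, 14.4 and 13.9 CPM in nuclear and 3.61, 5.12 and 2.78 CPM in cytoplasmic arsenite libraries (1.37 ± 0.26, adjusted p = 0.0079). The call count fell to 0 without the third nuclear arsenite library and was at most 16 without any other, in limma. In edgeR 47 were called higher and 24 lower. At single peaks 43 were called higher and 18 lower of 26577 tested members, beside 0.257% of all peaks (0.11% higher and 0.147% lower), and 23 of the 43 were snRNA peaks.

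In the cytoplasmic fraction part of the long lncRNAs were called higher after arsenite. Of 2592 tested genes, 114 were called higher and 50 lower after arsenite in the cytoplasmic fraction, together 164, where 4.52% of all features were called (2.05% higher and 2.47% lower), and the median was 0.15 against 0.09. Of 84 genes with 100 or more peaks, 46 were called, each higher, with a median of 0.64, and of 442 intron features of that size 224 were called higher. Most calls of the 84 were lost when any of several single libraries was left out, which also loosens the filter. Of the 84, 0 were called without the second cytoplasmic mock, the first or the third cytoplasmic arsenite library. Without the third cytoplasmic mock library 5 were called, and without the second cytoplasmic arsenite library 7. The medians in these fits were 0.58 to 0.68. These levels are relative to the whole library, and with the narrower total given above the cytoplasmic member share differed by −0.07 points between arsenite and mock. LINC01004, with 73 peaks on chromosome 7, had 70.2, 54.0 and 66.4 CPM in cytoplasmic mock and 186, 185 and 180 CPM in cytoplasmic arsenite libraries, a rise of 1.505 ± 0.147 (adjusted p = 0.0005). Its nuclear libraries also rose, from 117, 90.0 and 86.9 to 148, 167 and 162 CPM (0.70 ± 0.12, adjusted p = 0.017). HCG17, a lncRNA of the HLA region, was at 0 in the cytoplasmic mock libraries and at 7.22, 5.12 and 4.87 CPM after arsenite, at least 5.49-fold higher, which is a description since only the arsenite libraries brought it into the test. KIF9-AS1 went from 10.6, 5.09 and 6.33 to 23.1, 26.1 and 32.0 CPM (1.64 ± 0.26, adjusted p = 0.007).

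Among members that fell in the cytoplasm, ENSG00000273338, with 1 peak at chr1:78004514-78004534 on the minus strand within DNAJB4, went from 9.57, 13.2 and 12.7 CPM to 0 in all 3 libraries, at least 18.1-fold lower. It entered the test through its mock libraries alone, so this value is a description. ENSG00000288899 on chromosome 19 went from 64.9, 84.5 and 55.9 to 10.8, 16.5 and 9.74 CPM, a fall of 2.28 ± 0.24 (adjusted p = 0.00066). MIR122HG, the precursor of the liver microRNA miR-122, fell in both fractions: from 72.3, 75.4 and 104 to 28.9, 40.4 and 32.0 CPM in the cytoplasm (by 1.25 ± 0.20, adjusted p = 0.007) and from 72.9, 80.0 and 67.6 to 31.2, 27.2 and 26.0 CPM in the nucleus (by 1.32 ± 0.15, adjusted p = 0.0011). Its groups overlapped between fractions in both states. The summed hepatocyte markers were also lower after arsenite, at 1113 to 1199 CPM in nuclear mock against 656 to 711 CPM in nuclear arsenite libraries and 1777 to 2523 against 945 to 1064 CPM in the cytoplasm, and their part in this result was not tested. The count was sensitive to each of several single libraries. Calls numbered 1 without the first and 6 without the third cytoplasmic arsenite library. They numbered 3 without the second and 33 without the third cytoplasmic mock library, and at most 165 otherwise. Such a fit has fewer libraries and a looser filter. In edgeR 220 were called higher and 54 lower, where the median of all features was 0.35 in place of 0.09. At single peaks 70 were called higher and 31 lower of 21109 tested, beside 0.76% of all peaks (0.24% higher and 0.52% lower).

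Few members changed with arsenite in the nuclear fraction. Of 2418 tested genes, 17 were called higher and 14 lower, together 31, beside 1.65% of all features (1.31% higher and 0.337% lower), with a median of 0.02 against 0.05. The balance turned to 16 higher and 24 lower after scaling to tags in peaks and was 28 higher and 15 lower in edgeR. LINC00261, a lncRNA next to FOXA2 in endoderm and liver, had 55.4, 39.1 and 42.5 CPM in nuclear mock, 80.8, 126 and 97.0 in cytoplasmic mock, 142, 145 and 160 in nuclear arsenite and 209, 187 and 204 in cytoplasmic arsenite libraries. It rose with arsenite in both fractions without overlap, by 1.67 ± 0.14 in the nucleus (adjusted p = 0.00019) and by 0.99 ± 0.17 in the cytoplasm (adjusted p = 0.0094). Of its level 54.2% came from 1 peak, at chr20:22563389-22563409 on the minus strand, whose nuclear rise was 2.74 (log2, adjusted p = 0.0004). ENSG00000260257 on chromosome 20 had 20.4, 21.8 and 15.4 CPM in nuclear mock, 79.8, 71.3 and 68.5 in cytoplasmic mock and 92.9, 78.4 and 65.8 in nuclear arsenite libraries, a nuclear rise of 1.92 ± 0.19 (adjusted p = 0.00044). DANCR, a short lncRNA that hosts snoRNA and microRNA sequence, fell from 16.03, 14.6 and 10.6 to 5.61, 4.0 and 2.60 CPM (by 1.35 ± 0.28, adjusted p = 0.039). The count of calls was 0 without the second nuclear arsenite library, 3 without the first, 5 without the first nuclear mock library, 16 without its second and 96 without the third nuclear arsenite library. At single peaks 13 were called higher and 6 lower of 23304 tested, beside 0.186% of all peaks (0.152% higher and 0.034% lower).

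The test of whether the fractions responded differently to arsenite, a difference of differences over all 12 fraction libraries, called 131 of 3406 tested genes. In 43 the nuclear-minus-cytoplasmic difference was higher after arsenite and in 88 lower, beside 2.94% of all features (2.09% higher and 0.849% lower). Of the 84 genes with 100 or more peaks, 57 were called, each lower, with a median of −0.73 and all 84 below 0. Of 442 intron features of that size 271 were called lower, also with a median of −0.73, so this was not particular to the members. Without single libraries 29 to 63 of the 84 were called, with 29 without the second cytoplasmic arsenite, 32 without the second cytoplasmic mock, and 34 and 35 without the first and the third nuclear arsenite library. In edgeR 36 genes were called higher and 38 lower, and 18 of the long genes. For the long gene LINC01876 the value was −0.88 ± 0.08 (adjusted p = 7.9e-11, edgeR 0.019), and for OVCH1-AS1 it was 2.64 ± 0.29 (adjusted p = 8.5e-09), both in 12 of 12 fits without 1 library. Over single omissions the count ran from 61 to 164.

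**Figure D5:**
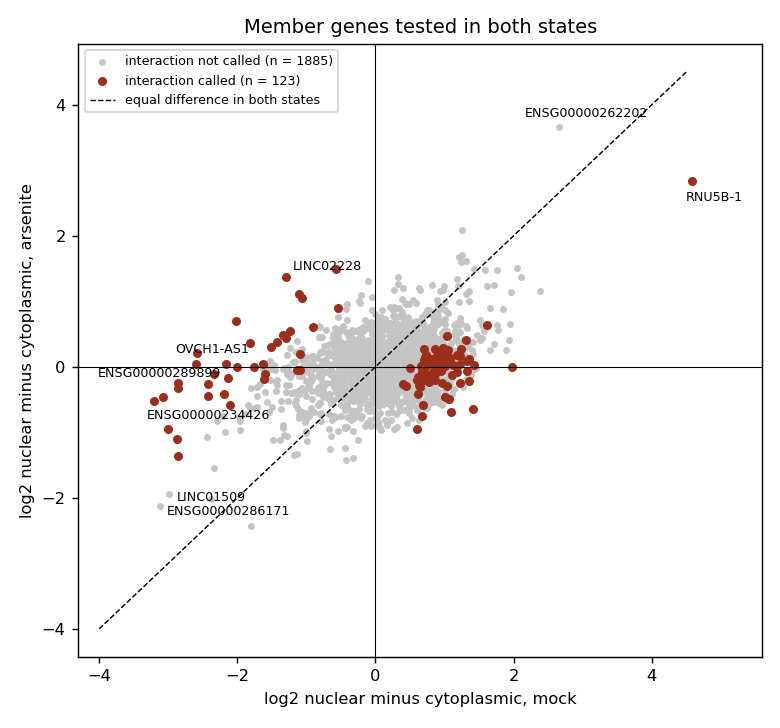
Nuclear-minus-cytoplasmic log2 difference of each member gene tested in both states, in mock cells (x axis) and after arsenite (y axis); coloured points have a called difference of differences. Of 2008 genes, 123 are coloured, 37 with a mock difference below 0 and 86 with one above 0.

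Ribosomal members were few and tag-rich. ENSG00000280441 on chromosome 21, with 78 peaks, 72 of them in ribosomal RNA genes, had 794, 771 and 693 CPM in nuclear mock, 1339, 1768 and 1924 in cytoplasmic mock, 1320, 909 and 1172 in nuclear arsenite and 1436, 953 and 1125 in cytoplasmic arsenite libraries. It was cytoplasmic in mock (−1.14 ± 0.12, adjusted p = 0.00027), and the fractions overlapped after arsenite. RNA5S16, a 5S gene whose product joins the large ribosomal subunit, had 27.7, 25.5 and 24.1 CPM in nuclear mock against 7.45, 14.3 and 12.7 CPM in cytoplasmic mock libraries (1.06 ± 0.26, adjusted p = 0.022). Of 24 tested genes in ribosomal loci, 3 were called higher and 3 lower in the nuclear mock libraries (12.5% each), beside 8.49% of all features higher and 11.2% lower. Scaled to tags in peaks 7 were higher and 2 lower, and in edgeR 0 were higher and 2 lower. The copies of these genes are nearly identical, so the peak given for a read is uncertain.

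In the APEX lines the ribosomal members set much of the member share. They took 0.418% to 0.831% of tags in the fraction libraries, 0.179% to 1.37% in the enriched libraries of set JL0388, 9.34% to 22.1% in the enriched NLS and NES libraries of set JL1024 and 1.49% to 3.07% in its enriched G3BP libraries. Input libraries of JL1024, without capture, had 4.56% to 13.01% in NLS and NES and 1.20% to 5.62% in G3BP. Enriched libraries of JL0361 had 0.55% to 5.97%. For 4 pairs of enriched libraries in JL0388 a chi-square test of their tags found no difference beyond sampling noise, while pairs of the same group in other sets did differ when thinned to that depth. These pairs were counted once in each mean here: NLS mock 1 and 2, NLS arsenite 1 and 2, NES arsenite 1 and 2, and G3BP arsenite 4 and 5. Their chi-square per degree of freedom was 1.07 to 1.09, and the p-values of that test ran from 0.0798 to 0.14. G3BP mock 3 and 4, with 1831 and 679 tags, had 0.976 and did not differ either, but other pairs of the group could not all be told apart at that depth, so they were kept as 2 libraries. All member peaks together took 22.51% ± 7.53 (n = 3) of tags in enriched NLS and 18.53% ± 10.24 (n = 4) in enriched NES mock libraries, which overlapped (difference 3.97 points, exact permutation p = 0.543). With ribosomal peaks left out of members and totals, a choice made after the values were seen, every NLS mock library was above every NES mock library: 13.85% ± 0.32 (n = 3) against 11.02% ± 1.79 (n = 4). The difference was 2.83 points with the pairs counted once (exact permutation p = 0.0571) and 2.85 with every library (exact permutation p = 0.0286, adjusted p = 0.122 over 11), and it was 4.10 points in JL0388 and 1.60 in JL1024. After arsenite the same comparison gave 13.04% ± 0.67 against 10.59% ± 2.15 (n = 3 each; exact permutation p = 0.1 with pairs once and 0.0286 with every library), with 5.34 points in JL0388 and 1.00 in JL1024. None of the 11 share comparisons passed the adjusted threshold.

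In enriched G3BP libraries the mean member share was lower after arsenite, but not past the adjusted threshold. They had 11.57% ± 0.69 (n = 6) in mock and 8.65% ± 3.34 (n = 6) after arsenite, and the groups overlapped. The difference was −3.32 points with all libraries (exact permutation p = 0.0332, adjusted p = 0.22 over 11) and −2.92 with the pair counted once (exact permutation p = 0.0563), or −2.91 with mock 3 and 4 counted once too (exact permutation p = 0.0823). Within library sets it was −2.73 in JL0361, −5.76 in JL0388 and −1.72 in JL1024. Without ribosomal peaks it was −2.40 points with all libraries (exact permutation p = 0.0431, adjusted p = 0.122) and −2.20 with the pair counted once (exact permutation p = 0.0801), with −0.48 in JL0361, −5.05 in JL0388 and −1.75 in JL1024. The G3BP input libraries, without capture, had 13.94% ± 1.95 (n = 4) in mock and 11.54% ± 2.14 (n = 5) after arsenite, and these overlapped. G3BP and NES enriched libraries of the shared sets overlapped in mock (−6.92 points, exact permutation p = 0.343) and after arsenite (−9.35 points, exact permutation p = 0.143). Within sets the mock difference was 0.68 points in JL0388 and −14.51 in JL1024. As shares of the library totals, both the mock and the arsenite difference turned direction. Without ribosomal peaks the differences were −0.90 (exact permutation p = 0.457) and −3.27 points (exact permutation p = 0.0857, or 0.2 with pairs counted once).

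ENSG00000234426, the lncRNA with the ACTBP8 peak, was the 1 of 3 members followed through the APEX lines that passed the adjusted threshold, and it did so only with G3BP mock 3 and 4 counted as 2 libraries and the shallow libraries kept. Its enriched G3BP arsenite libraries had 380.3, 284.5, 276.5, 225.5, 178.2, 136.6 and 224.0 CPM, and the enriched G3BP mock libraries 0, 119, 135.5, 0, 74.8 and 75.2 CPM. With the pair counted once the groups did not overlap, though the lowest arsenite and the highest mock library were close. The means were 250.6 ± 83.3 and 67.4 ± 57.5 CPM (n = 6 each), with an exact permutation p of 0.00217, the smallest possible, and an adjusted p of 0.0455 over 21 tests. With mock 3 and 4 counted once too, an alternative added after seeing the data, the difference was 183.3 CPM in place of 183.2 (6 against 5, exact permutation p = 0.00433, adjusted p = 0.0909), so the call was lost. The mock libraries at 0 and at 135.5 CPM held 519 to 1831 tags in peaks. Without libraries under 2000 tags the means were 224.7 and 89.7 CPM (5 against 3, exact permutation p = 0.0357, adjusted p = 0.263), which did not pass the adjusted threshold. Within sets they were 313.8 against 59.5 in JL0361, 201.8 against 67.8 in JL0388 and 180.3 against 75 in JL1024. The G3BP input libraries, which had no capture, were at 50.6, 133, 35.3 and 0 CPM in mock and 410.5, 266.9, 243.6, 56.7 and 149.3 CPM after arsenite. Enriched NLS mock libraries averaged 15.4 ± 6.1 CPM (n = 3) and NES mock libraries 99.9 ± 60.5 CPM (n = 4), without overlap (exact permutation p = 0.0571, adjusted p = 0.24). OVCH1-AS1 and LINC02476 had no test under an adjusted p of 0.24 and varied by library set: LINC02476 averaged 1195 CPM in JL0388 and 207 CPM in JL1024 in enriched NLS mock libraries.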

How the data were processed

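The values come from a table of peak coverage in which the authors deposited, per peak and library, a signal of tags scaled to the library total; every value was a whole number of tags at a tolerance of 0.01. The submitters' processing notes name GRCh38.p14, Bowtie2, SAMtools, bedtools and HOMER; the settings of peak calling are not given in the sources used here. Members and gene lists were chosen with earlier results of these data known. Features (peaks, or peaks summed by gene and annotation group) seen in no fewer libraries than the smaller group holds were tested with limma 3.58.1 (trend) on log2(CPM + 2.28), with Benjamini-Hochberg adjustment over all features and a threshold of 0.05. The edgeR 4.0.16 quasi-likelihood test on whole tags was an alternative. The procedure was also run on simulated data with equal numbers of rises and falls, a simpler case than these data, and no result rests on it. Shares used exact two-sided permutation tests. Named genes were, per fraction comparison, the 8 largest called non-overlapping differences in each direction among named genes and the 3 largest at peaks, the 15 genes of the highest mean, the top peak of each class, and members of the lists; genes outside this rule were chosen after their values were seen. Pairs of enriched libraries that a chi-square test could not tell apart counted once where other pairs of the group could be told apart at that depth. Depth is given with the results and some items are not reported here.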

Additional observations from a re-analysis of the deposited data

Results flagged for a closer look

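The response to arsenite differed between the nuclear and cytoplasmic fractions by a test of the difference itself, in both limma and edgeR, for 23 reported genes, of 45 called by limma. Many of these genes were reported because of called differences between the same libraries, so the count does not stand for all members. In limma 2.94% of all tested features were called. Values are the nuclear response minus the cytoplasmic response on the log2 scale. The larger values above 0 were 2.693 for ENSG00000234426, 2.613 for ENSG00000289899, 2.642 for OVCH1-AS1, 2.674 for LINC02228, 2.541 for ENSG00000289728, 2.178 for ENSG00000260257 and 2.106 for ENSG00000288899. Further values above 0 were 1.817 for ENSG00000263731, 1.814 for LINC01982, 1.784 for GMDS-DT, 1.746 for TACR3-AS1 and 1.438 for HELLS. The ribosomal members were at 2.071 for RNA5-8SN3, 1.095 for ENSG00000280441 and 1.039 for ENSG00000278996. Long lncRNAs were below 0: −0.8095 for ENSG00000227088, −0.8674 for ENSG00000248515, −0.8641 for ENSG00000249413, −0.8773 for LINC01876, −0.9116 for LINC02438, −0.9134 for MIR548XHG and −0.8905 for SLC38A4-AS1. ST8SIA6-AS1 was at −1.973.

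In 4 of 34 pairings of a measure with a group, 1 library, or 1 pair counted once, stood apart from the rest of its group by Dixon's test. The nominal rate of that test by chance is about 1 pairing in 20. The pairings share libraries, and groups of fewer than 4 values, among them all fraction groups, were not examined. The snRNA share was 1.366% in 1 enriched G3BP arsenite library, from 19 of its 1391 tags in peaks, and 0.105% to 0.363% in the others. OVCH1-AS1 had 233.6 CPM in the enriched G3BP arsenite pair counted once (146.5 and 320.7 CPM) against 0 to 17.1 CPM in the others, and 214.5 CPM in 1 enriched G3BP mock library, from 1 tag, against 0 to 14.96 CPM. LINC02476 had 1287 CPM in that same mock library, from 6 tags, against 0 to 474.3 CPM. That library held 679 tags in peaks.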

How the results depend on the processing

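Counts of called members depended on the setting, while no called difference of a named gene reversed its direction. Peaks and then genes called were 227 and 458 between fractions in mock, 61 and 51 between fractions after arsenite, 101 and 164 for arsenite in the cytoplasm and 19 and 31 in the nucleus, and the difference of differences called 131 genes. With a pseudocount 4 times smaller they were 137 and 431, 31 and 35, 746 and 344, and 10 and 19. With one 4 times larger they were 240 and 336, 49 and 57, 105 and 167, and 22 and 37. Without a filter they were 426 and 353, 130 and 88, 132 and 194, and 67 and 64; with a stricter filter 335 and 403, 341 and 99, 435 and 325, 228 and 109, and 240 for the difference of differences. Scaled to tags in peaks they were 316 and 456, 79 and 68, 150 and 186, and 24 and 40. In edgeR they were 51 and 205, 28 and 71, 198 and 274, 6 and 43, and 74. In a fit of all 12 fraction libraries they were 1421 and 582, 114 and 54, 541 and 322, and 196 and 90. Leaving out single libraries gave 0 to 1765 peaks and 116 to 235 genes in mock, 0 to 3 and 0 to 16 after arsenite, 0 to 1942 and 1 to 165 in the cytoplasm, 0 to 861 and 0 to 96 in the nucleus, and 61 to 164. The causes were not tested.

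Equal replicate numbers did not pair the fraction libraries, since the correlations of their deviations ran from −0.006 to 0.0186. With the replicate block the counts were 194 and 299, 38 and 54, 175 and 157, 27 and 45, and 128, and the G3BP share difference was −2.97 points (exact permutation p = 0.0938).

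Member shares turned direction, in percentage points, as follows. With tags outside 3′UTR, snoRNA and excluded named lncRNA peaks as the total the arsenite difference was −0.07401 in the cytoplasm and 0.3817 in the nucleus, and NLS minus NES was −0.7884 in mock and −2.719 after arsenite. Within JL1024 NLS minus NES after arsenite was −3.816, and with pairs counted once −1.003, where the NES arsenite difference was 1.409. With library totals G3BP minus NES was 0.2921 in mock and 0.06832 after arsenite, and within JL0388 in mock 0.6786. Without single libraries NLS minus NES ran from −0.9042 to 6.567 in mock and −2.367 to 3.973 after arsenite, and the arsenite difference from −4.942 to 0.003653 in NLS and −4.874 to 3.374 in NES. Low depth limits the enriched libraries, the shallowest of which held 519 tags.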
